A study of Rattus norvegicus with 24 samples.

Results

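Myocardium of rats 10 weeks after mitral regurgitation (MR) surgery was compared with myocardium of rats 2 weeks after the same surgery, by bulk RNA sequencing. The comparison took 9 of the 24 libraries of the series, 5 at 10 weeks and 4 at 2 weeks, chosen by the surgery and time point in the labels. All rats were Sprague-Dawley. In MR surgery the left chest was opened and a mitral leaflet was perforated, and in Sham surgery the leaflet was left intact. The 5 Sham libraries came from 2 weeks after surgery and serve here as a second set of values. They also entered the main fit, where they add to the estimate of the spread behind each p-value. The position of a gene against Sham is described by its values, and the share of all genes so placed was not counted. The MR libraries from 20 and 40 weeks entered an alternative fit alone. There was no Sham library at 10 weeks among the samples, so time after the lesion, time after surgery and age cannot be told apart. The labels give no sex, age, chamber of the heart or date, and do not say that each library is a separate animal, so the p-values measure the spread between these libraries.

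Mitral regurgitation sends part of each heartbeat back into the left atrium, and the left ventricle then fills with a larger volume, a state called volume overload. The ventricle dilates and its cardiomyocytes lengthen, while fibroblasts and the collagen network around them remodel. Adult cardiomyocytes rarely divide, whereas fibroblasts, endothelial cells and immune cells of the heart can, and the genes of DNA replication and mitosis are transcribed mainly in dividing cells. In bulk tissue, fewer cells of a type and less RNA per cell cannot be told apart.

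The recovered depth was 8.80 to 12.1 M reads assigned to genes in the MR 10 weeks libraries, 8.18 to 10.4 M reads in the MR 2 weeks libraries and 7.69 to 9.70 M reads in the Sham libraries. Values are the authors' normalised counts after a rescaling of each library, and 1 read was worth 0.0393 to 0.0590 of a normalised count before it. MR 2 weeks replicate 1 stood apart from the other libraries. Its score on the first principal component of the 14 libraries was 43.2, against -25.8 to 14.8 in the rest, and its median distance from the other libraries of its group was 0.40 on the log2 scale, against 0.15 to 0.23 for each of the other 8 MR libraries. Results that rest on it are given with and without it. The cardiomyocyte markers Myh6, Tnnt2, Tnni3, Actc1, Ryr2 and Pln were all measured, and their summed normalised count was 22120.1 to 38364 in MR 10 weeks, 32634 to 43823 in MR 2 weeks and 36160.5 to 42781 in Sham libraries, so the defining markers of heart muscle were present in each library.

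Genes of cell division made up the largest named group among those that changed: 22 of them fell and none rose at 10 weeks relative to 2 weeks. Top2a and Mki67, markers of cycling cells, fell: their 2-week means were 10.1 and 6.31 times their 10-week means. A small set rose, and in Gsn, for the actin-severing protein gelsolin, the 10-week mean was 2.35 times the 2-week mean. Of 10077 genes tested with limma on log2(normalised count + 1), 59 fell and 11 rose at a Benjamini-Hochberg adjusted p under 0.05, which is 0.585% and 0.109% of the genes tested and 0.695% in all. The median log2 difference (MR 10 weeks minus MR 2 weeks) over all genes was 0.01. At low values the added 1 makes a log2 difference smaller in size than the log2 ratio of the means, so it is no fold change. In Espl1 the 2-week mean was 9.36 times the 10-week mean. Its log2 difference was -1.81, and -3.18 with edgeR on recovered reads, an alternative fit. The values of the 2 groups did not overlap in 66 of the 70 called genes, and Ect2, Tpm4, Ephx1 and Art5 were the exceptions. This count rests on the same values as the calls, so it is no separate support for them. Without regard to the adjustment, 828 genes were lower (8.22%) and 558 higher (5.54%) at p under 0.05, and in 324 genes (3.22%) every 10-week library lay below every 2-week library, with 197 genes (1.95%) the other way. The number of calls depended on single libraries. Without MR 2 weeks replicate 1, 203 genes fell and 149 rose (2.01% and 1.48% of 10078), among them all 70 of the genes above. Without MR 2 weeks replicate 2 or replicate 4 there were 20 calls each, and without MR 10 weeks replicate 1, 2 or 3 there were 30, 43 and 31. A set of 17 genes passed in each of the 9 fits that left out 1 library: Gsn and Ypel3 among the risers, and Top2a, Mki67, Lmnb1, Kif22, Tpx2, Cenpf, Iqgap3, Kif18b, Nek2, Kif20a, Racgap1, Espl1, Kif23, Prc1 and Atp2b4 among the genes that fell.

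**Figure D1:**
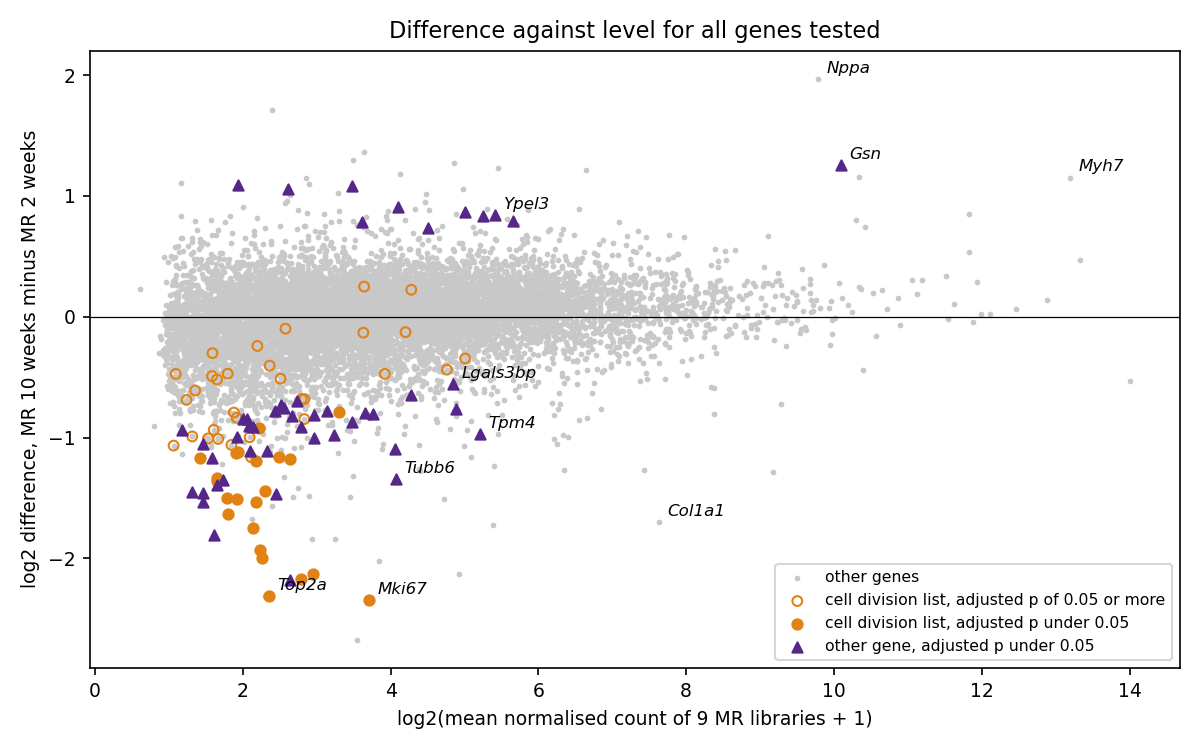
Each point is a gene: the horizontal axis is the log2 of its mean normalised count over the 9 MR libraries plus 1, and the vertical axis is its log2 difference, MR 10 weeks minus MR 2 weeks. Filled circles are members of the cell division list that passed the adjusted threshold, open circles are members that did not, and triangles are other genes that passed, and most genes that fell lie at low levels; Gsn has the highest mean of the genes that passed, and Col1a1, Nppa and Myh7 are labelled although they did not pass.

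The cell division list held 84 genes of DNA replication, chromosome segregation and cytokinesis, chosen with earlier results of these data known. Of these, 53 were listed in both tables and tested, and their median log2 difference was -0.99, against 0.01 over all genes. Of the 53, 51 lay below 0, 22 fell (background 0.585%), 44 were lower at an unadjusted p under 0.05 (background 8.22%) and in 32 every 10-week library lay below every 2-week library (background 3.22%). Their summed normalised count was 189 to 238 in MR 10 weeks, 297 to 466 in MR 2 weeks and 201 to 272 in Sham libraries, so that the sums of the MR groups did not overlap while those of the MR 10 weeks and Sham groups did. Against Sham, which both comparisons share, the list's median was -0.25 at 10 weeks and 0.71 at 2 weeks. The count of 22 was 10 without MR 2 weeks replicate 2, 11 without MR 2 weeks replicate 4 and 28 without MR 2 weeks replicate 1. Where a mean of at least 5 was required of a gene, 14 of the list's genes were left to test, of which 2 fell, and their median was -0.46. The other 31 genes of the list were not tested: 19 were listed in the 2-week table and not in the 10-week table, none the other way round, and 12 were in neither. Over all genes, 203 of 10433 were in the 2-week table alone and 174 of 10404 in the 10-week table alone. Every gene listed in a table had at least 1 read in each of its libraries and at least 32 in its highest library, and how genes were chosen for a table is not stated in the labels. The 19 include Birc5, Bub1b, Ccna2, Hmmr and Kif11.

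Genes of mitosis are known to share 2 promoter elements, the CCAAT box and the cell cycle genes homology region TTTGAA, so promoters are shown for the 6 genes of the list with the largest falls whose upstream window lies outside the annotated gene. They are not the largest falls of the list: Mki67, Prc1, Cenpf, Tpx2 and Cdk1 fell more than Kif20a, Cdc20 and Mcm5 and are not shown. Mcm5 acts in replication and not in mitosis. Each line gives the 150 bases before the start of the gene on its own strand, 5′ to 3′, from RefSeq on GRCr8, a later build than that of the deposited files. Capitals mark CCAAT, which reads ATTGG when it lies on the other strand, and TTTGAA, which then reads TTCAAA. The windows are Top2a chr10:84473094-84473243 (minus strand), Iqgap3 chr2:175839851-175840000 (plus), Lmnb1 chr18:52373789-52373938 (plus), Kif20a chr18:26504272-26504421 (plus), Cdc20 chr5:137255800-137255949 (minus) and Mcm5 chr19:13488663-13488812 (plus).
Top2a: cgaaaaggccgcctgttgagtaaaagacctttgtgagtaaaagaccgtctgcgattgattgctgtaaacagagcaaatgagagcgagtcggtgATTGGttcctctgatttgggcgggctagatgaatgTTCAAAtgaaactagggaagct
Iqgap3: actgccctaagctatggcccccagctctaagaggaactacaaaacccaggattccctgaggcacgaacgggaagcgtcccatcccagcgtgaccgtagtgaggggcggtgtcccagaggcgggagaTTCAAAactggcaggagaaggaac
Lmnb1: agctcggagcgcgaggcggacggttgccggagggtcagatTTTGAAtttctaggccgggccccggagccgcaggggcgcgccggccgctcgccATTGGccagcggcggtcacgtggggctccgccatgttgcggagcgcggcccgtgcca
Kif20a: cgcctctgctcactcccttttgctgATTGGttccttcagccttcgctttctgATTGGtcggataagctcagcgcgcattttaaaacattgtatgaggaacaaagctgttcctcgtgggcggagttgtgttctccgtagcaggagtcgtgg
Cdc20: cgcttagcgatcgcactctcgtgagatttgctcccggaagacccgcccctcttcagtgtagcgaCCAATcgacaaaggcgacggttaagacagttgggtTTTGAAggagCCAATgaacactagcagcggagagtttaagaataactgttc
Mcm5: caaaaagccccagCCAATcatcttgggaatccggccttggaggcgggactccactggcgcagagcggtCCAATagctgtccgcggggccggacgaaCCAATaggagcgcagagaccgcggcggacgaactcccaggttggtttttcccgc

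In Top2a the ATTGG starts 57 bases and the TTCAAA 22 bases before the gene. Kif20a and Mcm5 show CCAAT without TTTGAA in this window, and Iqgap3 the reverse. Over windows of 300 bases (250 before and 50 after the start), 17 of the 22 genes that fell had a single entry, and 12 of them (70.6%) held TTTGAA and 14 (82.4%) held CCAAT, with both in 11. The shares were 46.3% and 75.6% in the 41 tested list members with an entry, and 10.5% and 37.8% in 7595 tested genes with one. Over all 24206 single-entry promoters they were 18.1% and 37.8%. Among the 9 risers with an entry none held TTTGAA and 6 held CCAAT. These shares count letters, were not matched for base composition, and the motifs can overlap by a base.

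Top2a, the topoisomerase that untangles sister chromatids (chr10:86901467-86930950 on rn6), had 0.821, 0.576, 1.27, 0.669 and 0.770 normalised counts in the MR 10 weeks libraries, 6.02, 10.5, 5.87 and 10.7 in MR 2 weeks and 0.869, 2.66, 2.92, 2.33 and 3.39 in Sham. Every 10-week library lay below every 2-week library, and the 2-week libraries lay above every Sham library. The log2 difference was -2.31 ± 0.24 (SE, limma adjusted p = 0.000347), on 96 reads at 10 weeks and 732 reads at 2 weeks. Mki67, which encodes the proliferation antigen Ki-67 (chr1:207993895-208020455), had 2.82, 4.37, 4.43, 4.32 and 2.05 in MR 10 weeks, 21.9, 24.4, 13.2 and 31.3 in MR 2 weeks and 3.75, 10.3, 9.45, 9.26 and 6.47 in Sham libraries. Its 2-week mean was 6.31 times its 10-week mean, and its log2 difference, taken after the added 1, was -2.34 ± 0.27 (limma adjusted p = 0.000524). Lmnb1, lamin B1 of the nuclear lamina (chr18:51785124-51822265), had 1.09, 1.54, 1.62, 1.49 and 1.36 in MR 10 weeks, 4.76, 6.62, 4.73 and 8.48 in MR 2 weeks and 2.01, 3.12, 2.29, 2.90 and 2.88 in Sham libraries, and here the 10-week libraries lay below the Sham libraries as well. It fell by 1.53 on the log2 scale (SE 0.17, adjusted p = 0.000474).

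Genes of mitotic entry and of the spindle fell as well. Cdk1, the kinase that drives entry into mitosis, had 0.978, 1.15, 1.18, 1.29 and 0.586 in MR 10 weeks against 5.92, 7.03, 2.45 and 10.2 in MR 2 weeks libraries, with Sham at 0.380 to 2.92 (log2 difference -1.75 ± 0.31, adjusted p = 0.0132). The 2-week replicate 3 was the lowest of its group in Cdk1 and still lay above the 10-week libraries. Foxm1, a transcription factor of late cell cycle genes, averaged 1.47 ± 0.416 in MR 10 weeks, 4.38 ± 0.809 in MR 2 weeks and 2.06 ± 0.865 in Sham libraries (SD, log2 difference -1.13, adjusted p = 0.0132). Tpx2, which nucleates spindle microtubules, had 0.743, 1.06, 1.27, 1.39 and 0.880 in MR 10 weeks and 6.02, 8.27, 4.79 and 9.03 in MR 2 weeks libraries (log2 difference -1.93 ± 0.25, adjusted p = 0.00117). Cenpf, a kinetochore protein, had 0.352, 0.576, 1.80, 1.90 and 0.696 in MR 10 weeks and 5.21, 8.15, 4.62 and 10.8 in MR 2 weeks libraries (log2 difference -1.996 ± 0.29, adjusted p = 0.00266). Within the 10-week group, replicates 3 and 4 were the highest in Cenpf, and in Prc1, a bundler of the central spindle, which had 1.02, 1.15, 2.59, 3.65 and 1.72 there against 11.7, 15.6, 5.38 and 17.8 in MR 2 weeks libraries (log2 difference -2.13 ± 0.34, adjusted p = 0.00652). Other list members that fell act in cytokinesis (Iqgap3 -2.17, Racgap1 -1.63, Kif20a -1.44, Kif23 -1.34, Ect2 -1.17, Arhgap11a -1.17), in the anaphase-promoting complex (Ube2c -1.36, Cdc20 -1.19), as a mitotic cyclin (Ccnb2 -1.50) and in chromosome condensation (Smc4 -0.79), all as log2 differences.

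Replication and nucleotide supply moved the same way. Rrm2, the ribonucleotide reductase subunit that sets deoxynucleotide supply, had 0.704, 0.961, 0.702, 2.57 and 0.660 in MR 10 weeks and 3.59, 6.95, 3.97 and 5.08 in MR 2 weeks libraries. The 10-week replicate 4 was far above its group and below the 2-week libraries, and the log2 difference was -1.51 ± 0.26 (adjusted p = 0.00971). Tk1, thymidine kinase, averaged 2.58 ± 0.335 in MR 10 weeks, 7.14 ± 1.71 in MR 2 weeks and 4.10 ± 1.66 in Sham libraries (SD, adjusted p = 0.0203), and Mcm5, a subunit of the replicative helicase, averaged 1.54 ± 0.585, 4.45 ± 1.09 and 2.998 ± 0.865 in the same order of groups (adjusted p = 0.0244). Mcm3 of the same helicase fell by 0.92 on the log2 scale (adjusted p = 0.0489). A separate list of D-type cyclins and inhibitors of cyclin-dependent kinases, which act before replication, had a median of -0.07 over 14 genes with none called, and its smallest p belonged to Ccnd1 (log2 difference -0.86, adjusted p = 0.0748) and Cdkn2c (-0.68, adjusted p = 0.346).

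**Figure D2:**
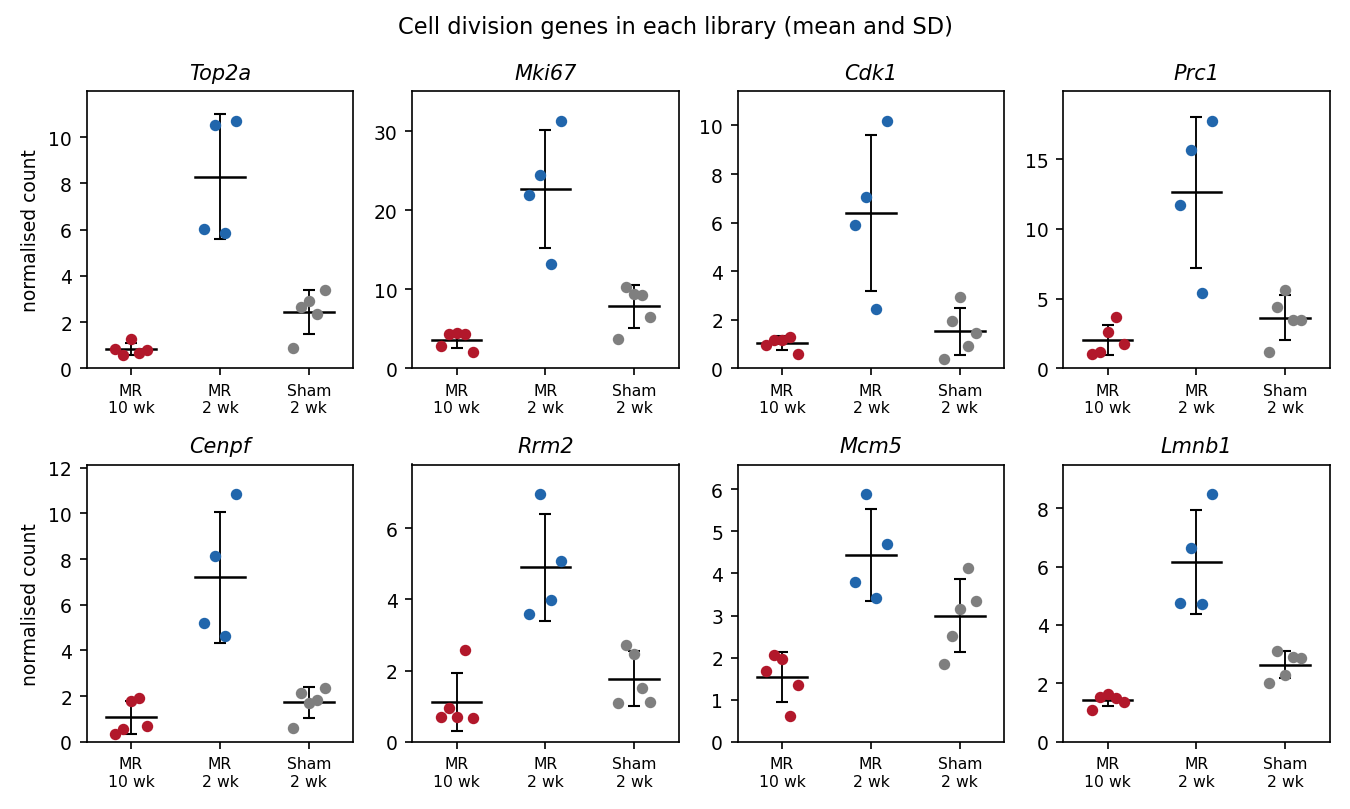
Normalised counts of 8 cell division genes in each library, with points for libraries, horizontal lines for group means and bars for SD, at MR 10 weeks (n = 5), MR 2 weeks (n = 4) and Sham 2 weeks (n = 5). In each panel the 10-week points lie below the 2-week points, as for Top2a with 0.576 to 1.27 against 5.87 to 10.7.

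Mitotic genes also stood among the 37 genes that fell outside the list; they were named after their values were seen. Kif22, a kinesin that moves chromosomes, had 1.84, 0.816, 2.46, 1.13 and 1.03 in MR 10 weeks and 9.66, 9.63, 7.61 and 13.1 in MR 2 weeks libraries, with Sham at 1.52 to 6.11. Its log2 difference was -2.18 ± 0.27 (limma adjusted p = 0.000722). The protease separase (Espl1) fell by 1.81, the centrosomal kinase Nek2 by 1.53, the kinesins Kifc1 and Kif18b by 1.47 and 1.46, Incenp of the chromosomal passenger complex by 1.11, and the spindle proteins Spag5 and Tacc3 by 1.06 and 0.996, on the log2 scale. Pimreg fell by 1.45 and Fam111a by 1.39. Of the 59 genes that fell, 52 had a mean over the 9 MR libraries below 12.4, the median of all genes tested. Genes were tested at a mean of at least 1 over libraries that include the 2-week group, and Espl1 and Ect2 reached it only with that group. Their means were 0.435 and 0.701 in MR 10 weeks, 4.07 and 2.92 in MR 2 weeks and 1.32 and 1.10 in Sham libraries. With no filter on the mean, 69 of the 70 called genes were called.

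The actin cytoskeleton and tubulin list held the next largest number of calls among the lists, with 4 genes that fell and 1 that rose among 58 tested (backgrounds 0.585% and 0.109%, median -0.25). Lmnb1 is among the 4 and stands in the division list too. Tubb6, a beta-tubulin, had 7.04, 6.34, 10.3, 11.3 and 10.3 in MR 10 weeks, 19.7, 29.6, 22.6 and 25.2 in MR 2 weeks and 11.1, 18.7, 25.2, 10.8 and 8.17 in Sham libraries. The 2-week libraries lay above the 10-week libraries, and Sham replicate 3 reached the 2-week range (log2 difference -1.34 ± 0.26, adjusted p = 0.023). Tuba1c, an alpha-tubulin, had 7.41, 9.37, 11.9, 13.4 and 8.97 in MR 10 weeks and 20.5, 23.5, 22.7 and 23.6 in MR 2 weeks libraries (log2 difference -1.09 ± 0.23, adjusted p = 0.0323); its coding sequence is close to those of other alpha-tubulins, and how shared reads were counted is not given in the sources used here. Tpm4, a tropomyosin of non-muscle actin filaments, had 17.1, 29.6, 18.3, 26.1 and 33.8 in MR 10 weeks and 32.4, 54.5, 56.2 and 55.4 in MR 2 weeks libraries. MR 2 weeks replicate 1 overlapped the 10-week group here, and the log2 difference was -0.97 (adjusted p = 0.0347) with it and -1.16 (adjusted p = 0.0069) without it. Tpm4 passed in 3 of the 9 fits that left out 1 library, with a limma adjusted p of up to 0.134 among them.

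Gsn was the gene of that list that rose. This gene for gelsolin, which severs and caps actin filaments (chr3:14482388-14508912 on rn6), had 1451, 1119, 1413, 1768 and 1571 normalised counts in MR 10 weeks, 444, 603, 604 and 837 in MR 2 weeks and 1327, 1135, 856, 1260.2 and 1075 in Sham libraries. Each 2-week library lay below each 10-week and each Sham library. The log2 difference was 1.25 ± 0.20 (adjusted p = 0.00544), on 169860 and 53983 reads. It was 1.10 (adjusted p = 0.0102) without MR 2 weeks replicate 1, the lowest library.

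Genes of other kinds also fell at or above the median level. Tcf4, a basic helix-loop-helix transcription factor, had 6.53, 13.1, 7.59, 9.98 and 9.35 in MR 10 weeks and 18.01, 14.6, 16.3 and 17.7 in MR 2 weeks libraries (log2 difference -0.80, adjusted p = 0.0408). Nectin2, a cell adhesion molecule, had 13.9, 13.4, 13.7, 16.1 and 15.4 in MR 10 weeks and 24.6, 22.3, 24.5 and 21.8 in MR 2 weeks libraries, with little spread in either group (log2 difference -0.65, adjusted p = 0.0203). Nav2, neuron navigator 2, had 24.1, 22.96, 20.5, 19.8 and 19.6 in MR 10 weeks and 48.97, 26.99, 35.3 and 39.3 in MR 2 weeks libraries (log2 difference -0.76, adjusted p = 0.0489). In the 2-week group Nav2 was lowest in replicate 2 and highest in replicate 1. Lgals3bp, a secreted glycoprotein that binds galectins, had 23.1, 22.7, 21.8, 25.8 and 20.8 in MR 10 weeks and 29.4, 37.3, 34.04 and 35.8 in MR 2 weeks libraries (log2 difference -0.56, adjusted p = 0.043), the smallest size among the called falls. Jak2, the kinase of several cytokine receptors, had 4.46, 5.86, 5.74, 7.25 and 5.13 in MR 10 weeks, 9.36, 9.79, 12.5 and 10.1 in MR 2 weeks and 7.12, 4.94, 6.64, 5.07 and 5.50 in Sham libraries, so the 2-week group was above both others (log2 difference -0.78, adjusted p = 0.0244). Jak2 and the genes from Nf1 to Uggt1 that follow were named after their values were seen. Atp2b4, a calcium pump of the plasma membrane, was the 1 call in the calcium cycling list and fell by 1.11 (adjusted p = 0.00971). Nf1, a brake on Ras signalling, fell by 0.87, the adaptor Crk by 1.01, the potassium channel gene Kcnn3 by 0.94, Lfng, which glycosylates Notch receptors, by 0.79, Apaf1, the core of the apoptosome, by 0.73, and Parva, which links integrins to actin, by 0.91, on the log2 scale. The other 11 genes that fell were Flrt2, Hipk3, Plekhg1, Slc25a30, Rufy3, Frmd4a, Nacc1, Tcof1, Fndc3b, Lrrc8b and Uggt1, with log2 differences between -1.17 (Flrt2) and -0.70 (Uggt1).

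The 11 genes that rose were mostly enzymes. Ypel3, a member of the yippee-like family (chr1:198210525-198213817 on rn6), had 54.04, 48.3, 58.3, 45.9 and 54.7 in MR 10 weeks, 28.3, 32.4, 28.2 and 25.7 in MR 2 weeks and 41.9, 42.3, 39.2, 41.5 and 42.1 in Sham libraries. The 3 groups did not overlap, with Sham between the MR groups (log2 difference 0.84 ± 0.11, adjusted p = 0.00125). Gstz1, an enzyme of tyrosine breakdown, had 31.99, 41.3, 35.04, 44.7 and 41.3 in MR 10 weeks, 22.5, 17.5, 29.04 and 15.9 in MR 2 weeks and 35.6, 36.6, 33.8, 36.9 and 35.8 in Sham libraries (log2 difference 0.87 ± 0.15, adjusted p = 0.0132). Its 2-week libraries lay below the Sham libraries, and its 10-week libraries overlapped them. Ces1d, a carboxylesterase that hydrolyses lipid esters, had 48.9, 39.8, 43.2, 43.99 and 55.5 in MR 10 weeks and 25.5, 25.3, 29.6 and 21.7 in MR 2 weeks libraries (log2 difference 0.83 ± 0.16, adjusted p = 0.0203). Carboxylesterase genes are a family of close copies, so its value depends on how shared reads were counted. Pnpla7, a lysophospholipase, had 31.9, 25.98, 24.6, 28.8 and 21.3 in MR 10 weeks and 19.8, 15.3, 15.1 and 12.3 in MR 2 weeks libraries (log2 difference 0.73 ± 0.15, adjusted p = 0.037). Ephx1, the microsomal epoxide hydrolase, had 22.2, 25.2, 20.96, 15.3 and 19.4 in MR 10 weeks and 15.6, 8.84, 10.3 and 8.05 in MR 2 weeks libraries, and MR 2 weeks replicate 1 overlapped the 10-week group. The log2 difference of Ephx1 was 0.91 with that library (adjusted p = 0.0219) and 1.09 without it (adjusted p = 0.00206). Ephx1 passed in 3 of the 9 fits that left out 1 library, with a limma adjusted p of up to 0.101 among them.

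In Ddit4, Eya2 and Pfkfb1 the 2-week libraries overlapped the Sham libraries. Ddit4, an inhibitor of the growth kinase complex mTORC1, had 73.01, 63.4, 58.8, 57.8 and 51.6 in MR 10 weeks, 36.3, 35.9, 27.1 and 39.8 in MR 2 weeks and 51.7, 34.8, 28.4, 30.6 and 32.5 in Sham libraries (log2 difference 0.80 ± 0.17, adjusted p = 0.0366). Sham replicate 1 of Ddit4 reached the lowest 10-week library. Eya2, a transcriptional coactivator with phosphatase activity, had 8.88, 14.6, 14.8, 19.1 and 10.6 in MR 10 weeks, 5.57, 4.24, 7.40 and 5.85 in MR 2 weeks and 5.65, 6.34, 4.18, 7.65 and 6.83 in Sham libraries (log2 difference 1.08 ± 0.21, adjusted p = 0.0226). Pfkfb1, an enzyme that makes and breaks the glycolytic activator fructose 2,6-bisphosphate, had 4.14, 2.74, 5.53, 2.78 and 4.80 in MR 10 weeks, 2.38, 0.864, 1.74 and 0.602 in MR 2 weeks and 1.52, 0.746, 0.859, 0.879 and 1.54 in Sham libraries (log2 difference 1.09 ± 0.24, adjusted p = 0.0459). Every 10-week library of Eya2 and of Pfkfb1 lay above every Sham and every 2-week library. For 10 weeks against Sham, however, the limma adjusted p was 0.139 in Eya2 and 0.14 in Ddit4. Art5, an ADP-ribosyltransferase, averaged 6.95 ± 1.61 in MR 10 weeks, 2.84 ± 1.01 in MR 2 weeks and 5.67 ± 2.09 in Sham libraries (SD, adjusted p = 0.0408), and Ccdc28a averaged 14.1 ± 3.005, 7.69 ± 0.879 and 11.3 ± 1.58 in the same order (adjusted p = 0.0281). Eya2, Art5 and Ccdc28a were named after their values were seen.

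**Figure D3:**
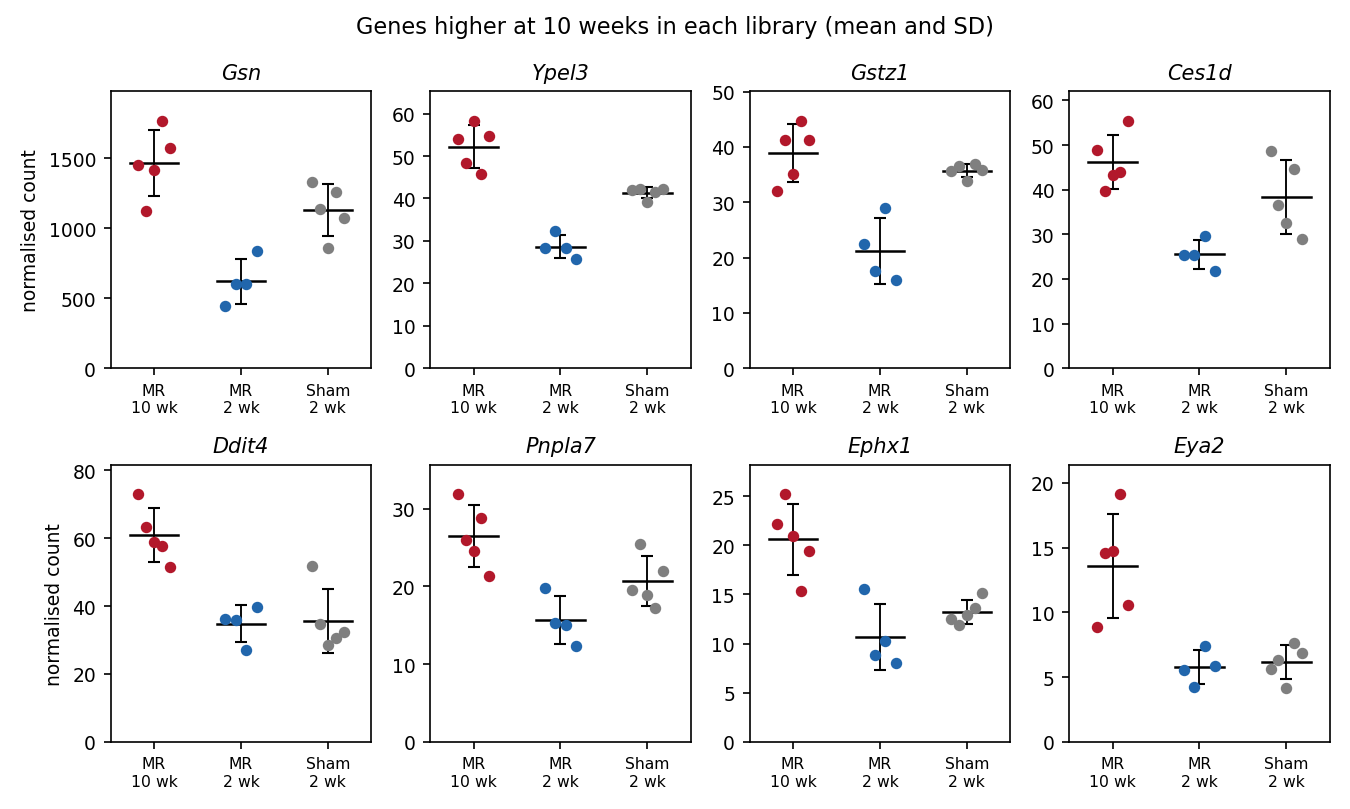
Normalised counts of 8 genes that rose, in each library, with points for libraries, horizontal lines for group means and bars for SD, at MR 10 weeks (n = 5), MR 2 weeks (n = 4) and Sham 2 weeks (n = 5). The 10-week points lie above the 2-week points in each panel except Ephx1, where the highest 2-week library (8.05 to 15.6 over the group) passes the lowest 10-week library (15.3 to 25.2).

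Collagen and fibroblast matrix genes were lower at 10 weeks in most values, without a call. Of 51 tested, 42 lay below 0, 18 were lower at an unadjusted p under 0.05 (background 8.22%), none passed the adjusted threshold, and the median was -0.38. Col1a1, the main fibrillar collagen chain, had 66.9, 54.7, 89.6, 116 and 127 in MR 10 weeks, 107, 561, 382 and 279 in MR 2 weeks and 115, 146, 670.0, 157 and 155 in Sham libraries. MR 2 weeks replicate 1 lay within the 10-week range, and Sham replicate 3 was the highest of the 14 libraries. The log2 difference of Col1a1 was -1.70 ± 0.48 (adjusted p = 0.117), and -2.17 (adjusted p = 0.0212) without MR 2 weeks replicate 1. Col3a1, a collagen of elastic tissues, had 259, 221, 278, 529 and 429 in MR 10 weeks, 370.2, 1357, 904 and 870.3 in MR 2 weeks and 355, 469, 1299, 472 and 467 in Sham libraries (log2 difference -1.29, adjusted p = 0.138, and -1.65, adjusted p = 0.0261, without that library). Fn1, fibronectin, had 14.6, 13.6, 19.6, 25.1 and 20.4 in MR 10 weeks and 34.3, 107, 85.3 and 48.3 in MR 2 weeks libraries, which did not overlap (log2 difference -1.72, adjusted p = 0.114, and -2.002, adjusted p = 0.0414, without that library). Postn, periostin of activated fibroblasts, had 1.60, 2.16, 5.22, 17.8 and 2.27 in MR 10 weeks and 10.5, 46.7, 16.4 and 17.1 in MR 2 weeks libraries (log2 difference -2.02, adjusted p = 0.241, and 0.129 without that library). In Postn the 10-week replicate 4 lay above 3 of the 4 2-week libraries. Timp1, an inhibitor of matrix proteases, averaged 9.52 ± 5.27 in MR 10 weeks and 15.96 ± 8.13 in MR 2 weeks libraries (SD, adjusted p = 0.489). Without MR 2 weeks replicate 1, 10 genes of the list fell (background 2.01%) and its median was -0.57. The smallest p values with all libraries belonged to Loxl2, a collagen crosslinking enzyme (-1.12, adjusted p = 0.112, and 0.0202 without that library), Col1a2 (-1.27, adjusted p = 0.114, and 0.0266 without it) and Thbs1, thrombospondin 1 (-1.28, adjusted p = 0.114). The summed fibroblast markers, over 6 of 6 genes, were 475 to 835 in MR 10 weeks, 417 to 1142 in MR 2 weeks and 506 to 1255 in Sham libraries. The sum includes Col1a1, and the median log2 difference of the 6 markers was 0.21, with Dcn, decorin, at 0.52 and Dpt, dermatopontin, at 0.19; the part of fibroblast number in the matrix values was not tested.

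**Figure D4:**
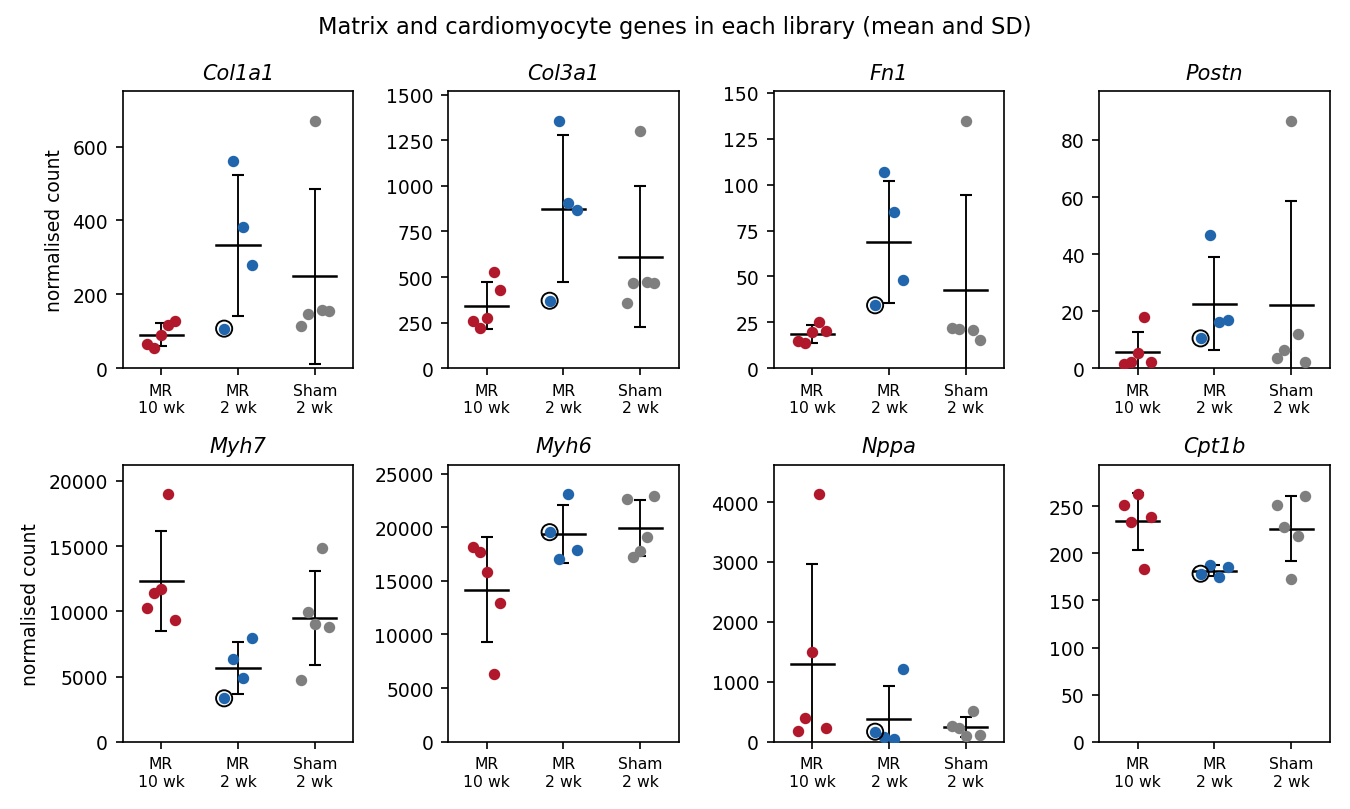
Normalised counts of 4 matrix genes (top) and 4 cardiomyocyte genes (bottom) in each library, with points for libraries, horizontal lines for group means and bars for SD, at MR 10 weeks (n = 5), MR 2 weeks (n = 4) and Sham 2 weeks (n = 5). The ringed point is MR 2 weeks replicate 1, which lies within the 10-week range for Col1a1, Col3a1 and Postn, and none of the 8 genes passed the adjusted threshold.

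None of the 12 genes of the cardiac panel passed. Myh7, the slow myosin heavy chain that failing rat hearts express more of, had 10249.6, 11373, 11707, 18982 and 9301 in MR 10 weeks, 3331, 6340.4, 4902 and 7991 in MR 2 weeks and 4731, 9950.2, 9044, 14851 and 8808 in Sham libraries. Every 10-week library lay above every 2-week library, and the log2 difference of 1.15 ± 0.34 had an adjusted p of 0.126. Myh6, the fast heavy chain of the adult rat heart, had 18151, 17722, 15815, 6289 and 12913 in MR 10 weeks and 19532, 17032, 23071 and 17825 in MR 2 weeks libraries, and the 10-week replicate 4 was the lowest in Myh6 and the highest in Myh7 (log2 difference of Myh6 -0.53, adjusted p = 0.48). Nppa, the atrial natriuretic peptide of stressed ventricles and of atria, had 181, 401, 1503, 4130.3 and 234 in MR 10 weeks, 168, 86.9, 38.4 and 1210.1 in MR 2 weeks and 271, 223, 98.1, 511 and 119 in Sham libraries. Replicates 3 and 4 at 10 weeks and replicate 4 at 2 weeks were the highest, and the groups overlapped. The log2 difference of 1.97 ± 0.93 of Nppa had an adjusted p of 0.361. Myl7, the atrial light chain, had 12.9, 3.07, 6.36, 10.1 and 1.43 in MR 10 weeks and 0.557, 0.617, 2.66 and 0.645 in MR 2 weeks libraries (log2 difference 1.71, adjusted p = 0.157). Of 6 atrial markers 3 were measured, with a sum of 204 to 4150.4 in MR 10 weeks, 42.5 to 1215 in MR 2 weeks and 109.8 to 535 in Sham libraries; Sln, Bmp10 and Mybphl were not among the genes tested, and the part of atrial tissue in the Nppa values was not tested. Nppb, the B-type peptide, averaged 279 ± 84.7 in MR 10 weeks and 267 ± 105 in MR 2 weeks libraries, and the calcium pump gene Atp2a2 averaged 2919 ± 469 and 3051 ± 944 (SD, adjusted p = 0.947 and 0.991). Skeletal actin Acta1 (-0.11, adjusted p = 0.933) and desmin Des (0.07, adjusted p = 0.93) lay near 0 in log2 difference. Cpt1b, which admits fatty acids to mitochondria, had 251, 233, 263, 184 and 239 in MR 10 weeks and 178, 188, 175 and 185 in MR 2 weeks libraries (log2 difference 0.35, adjusted p = 0.27). Tcap, a Z-disc cap of titin, had the smallest p of the sarcomere list (log2 difference 1.15, adjusted p = 0.0697), and it was 1.51 (adjusted p = 0.00206) without MR 2 weeks replicate 1.

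Lists of signalling and inflammation lay below the all-gene median. Of 46 immediate early genes, which respond to stimuli within minutes, 40 lay below 0 (median -0.34) and 13 were lower at an unadjusted p under 0.05 (background 8.22%), with none called. Fos had 6.18, 13.4, 6.36, 20.5 and 14.7 in MR 10 weeks and 40.6, 23.9, 34.7 and 18.1 in MR 2 weeks libraries (log2 difference -1.26, adjusted p = 0.126), with an overlap between the groups. Fosl1 (-0.80, adjusted p = 0.0611, and 0.0395 without MR 2 weeks replicate 1), Socs3 (-1.32, adjusted p = 0.0697), Fosl2 (-0.96, adjusted p = 0.0934, and 0.049 without that library) and Cyr61 (-0.98, adjusted p = 0.138) had the other smallest p values. Of 36 genes of complement and acute inflammation, 13 were lower and 1 higher at an unadjusted p under 0.05 (backgrounds 8.22% and 5.54%, median -0.33). Selp, the P-selectin that captures leukocytes on vessel walls, was the 1 gene of them that fell: it had 0.352, 0.480, 2.15, 0.411 and 1.76 in MR 10 weeks, 3.24, 3.50, 5.71 and 3.27 in MR 2 weeks and 1.96, 0.839, 2.69, 1.76 and 1.23 in Sham libraries (log2 difference -1.35 ± 0.28, adjusted p = 0.0323). The cytokine Il6 had 0.978, 0.0480, 0.395, 0.360 and 1.76 in MR 10 weeks and 5.46, 12.5, 11.3 and 2.80 in MR 2 weeks libraries, and Sham replicate 3 lay within the 2-week range at 0.0517 to 11.5 over the Sham group (log2 difference -2.31, adjusted p = 0.0748, and 0.045 without MR 2 weeks replicate 1). Il1r1, the interleukin 1 receptor (-0.78, adjusted p = 0.0512, and 0.0499 without that library), and Cfd, complement factor D (0.79, adjusted p = 0.116), did not pass with all libraries.

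Further lists far from the all-gene median held no call. Basement membrane genes had a median of -0.24 over 13 genes, with the smallest p values in Nid2, a nidogen that links laminin to collagen (-0.85, adjusted p = 0.0697), and Col4a1, its main collagen chain (-0.58, adjusted p = 0.119, and 0.0279 without MR 2 weeks replicate 1). Matrix proteases and inhibitors had a median of -0.20 over 22 genes, with Adamts1 (-1.05, adjusted p = 0.108) and Adamts4 (-1.84, adjusted p = 0.114), both of which cut proteoglycans, at the top. Growth factor, insulin and IGF genes had a median of -0.20 over 41, and their members went both ways: the IGF-binding proteins Igfbp3 and Igfbp4 had 0.85 and -0.99, and the insulin receptor substrate Irs2 had -0.86 (adjusted p = 0.114, 0.184 and 0.164). Of 47 interferon response genes 37 lay below 0 (median -0.17), with the antiviral genes Mx2 at -0.82 and Oasl2 at -0.65 (adjusted p = 0.168 and 0.176). On the other side, the 8 erythroid genes had a median of 0.36, with the globin genes Hba1 at 0.85 and Hbb at 0.74 (adjusted p = 0.593 and 0.607). The summed erythroid markers ranged over 1944 to 13978 in MR 10 weeks, 1944 to 4267 in MR 2 weeks and 1412 to 15718 in Sham libraries, and globin genes are close copies whose single values depend on how shared reads were counted. Lymphocyte genes had a median of 0.31 over 11, with the chemokine Ccl5 at 0.86 (adjusted p = 0.139). Circadian clock genes had a median of 0.21 over 21, with the repressor genes Bhlhe40 at -0.81 and Nr1d1 at 0.37 (adjusted p = 0.114 and 0.191), and the labels give no time of day.

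Without MR 2 weeks replicate 1, 282 further genes passed, and several lists then held calls. These genes are described as members of their lists and were named after their values were seen. Replicate 1 was singled out by its distance from its group in these same data, so the calls below depend on that choice. Leaving out MR 2 weeks replicate 2 or replicate 4 in its place gave 20 calls each over all genes. Of 49 endothelial genes 6 fell and 2 rose (backgrounds 2.01% and 1.48%): the semaphorin and VEGF co-receptor Nrp2 (-1.62), Cd93 (-1.51), the apelin gene Apln (-1.47), Cd34 (-1.25), the adhesion gene Cdh5 (-1.11) and the transcription factor Erg (-0.79) fell, while Egfl7 (0.82) and Gpihbp1, which anchors lipoprotein lipase to capillaries (0.95), rose. Of 49 splicing-related genes 7 rose, among them the kinases Clk1 (1.06) and Clk3 (0.97), and Mbnl1 fell (-0.78). Of 21 genes of the circadian clock list 4 rose and 0 fell: Per2 by 1.17, Tef and Nr1d2 by 0.81 each and Tspan4 by 0.89 on the log2 scale. The list went both ways at an unadjusted limma p under 0.05, with 9 higher and 4 lower. Over the 10063 genes tested in both fits these counts were 1019 and 1097. In the division list 6 more genes fell: Cdca3 (-1.18), Bub1 of the spindle checkpoint (-1.06), Cdca8 (-1.02), cyclin B1 (Ccnb1, -0.94), the sliding clamp gene Pcna (-0.60) and H2afx (-0.59). All of these values are log2 differences, and none of these genes passed with all 14 libraries.

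**Figure D5:**
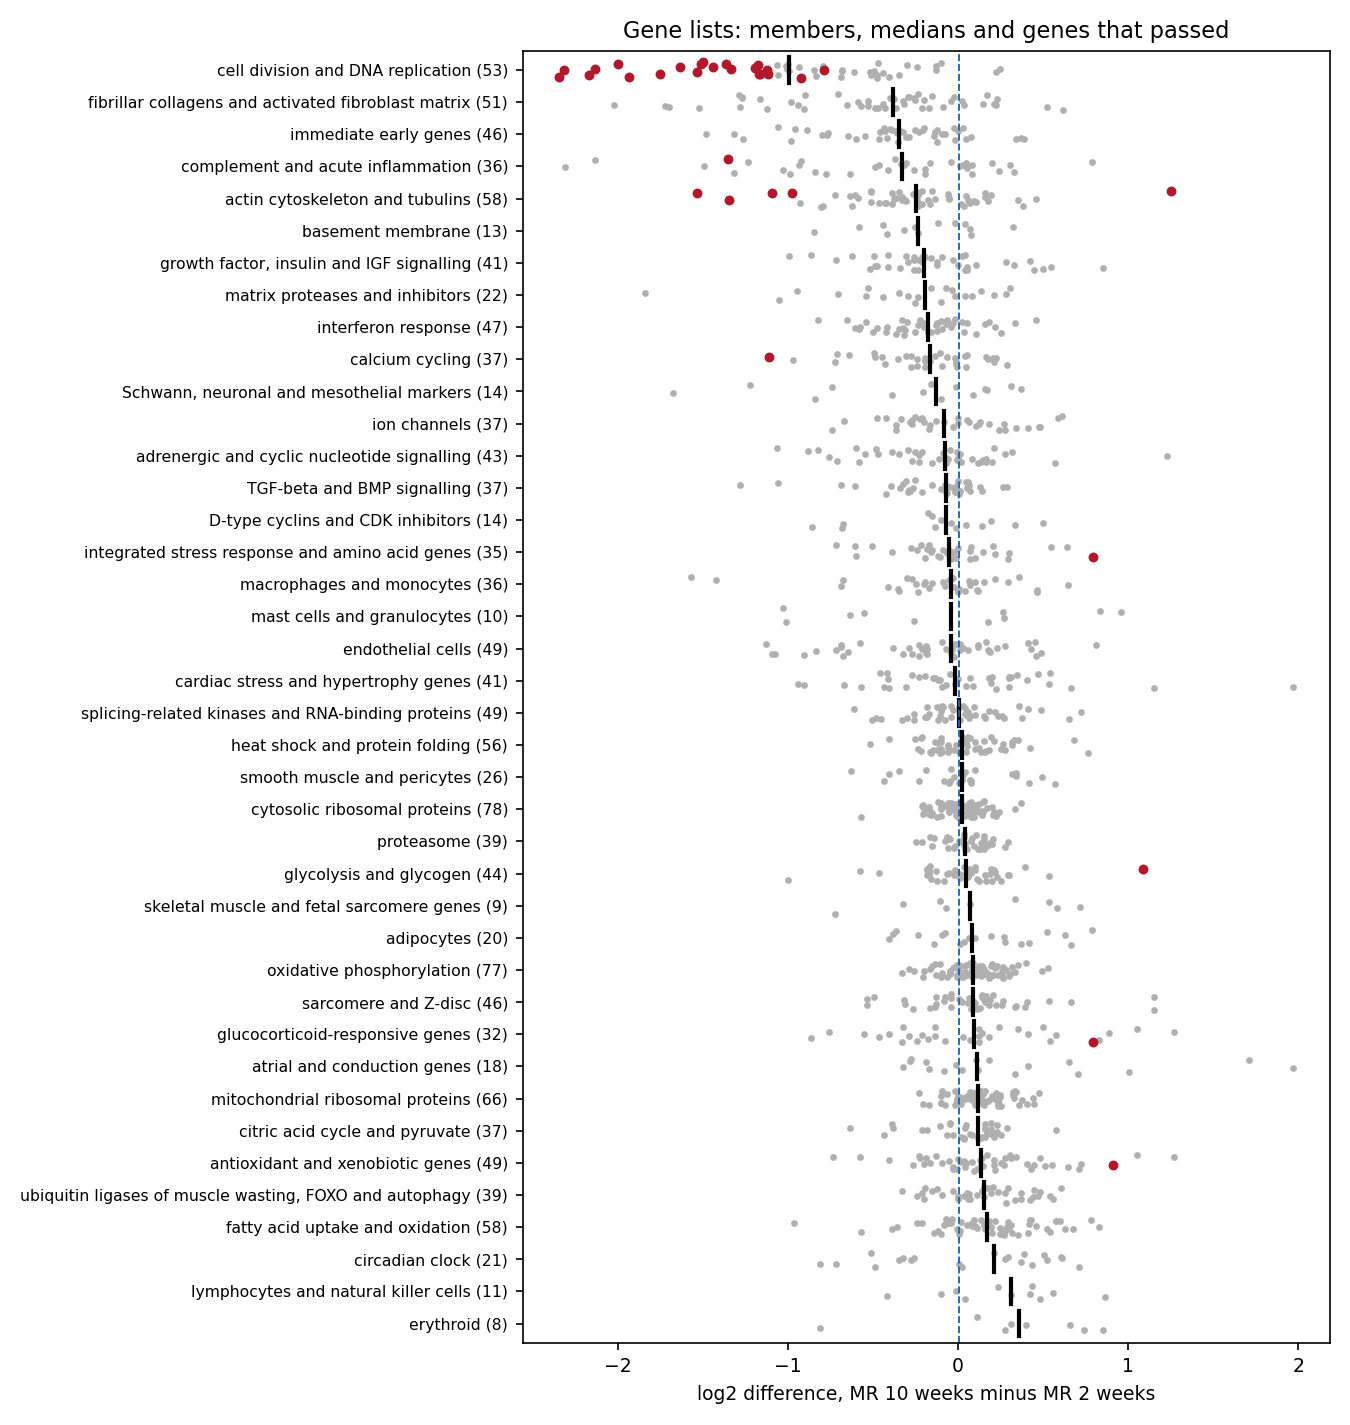
Each row is a gene list with the number of its genes tested in parentheses, and each dot is a gene at its log2 difference, MR 10 weeks minus MR 2 weeks. Red dots passed the adjusted threshold, black bars are list medians and the dashed line is the all-gene median of 0.01; the cell division list stands leftmost with a median of -0.99, and the next is the fibrillar collagen list at -0.38.

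Lists of energy metabolism had medians between 0.05 and 0.17, above that of all genes. Fatty acid uptake and oxidation genes had a median of 0.17, with 11 of 58 higher at an unadjusted p under 0.05 (background 5.54%) and none called, and the median was 0.01 without MR 2 weeks replicate 1. The coactivator gene Ppargc1b of that list had a log2 difference of -0.96 (adjusted p = 0.141). Oxidative phosphorylation had a median of 0.09 over 77 genes (Uqcr10 0.49, Cox11 -0.33), the citric acid cycle list 0.12 (Pdk4 0.58, Ogdh -0.63), mitochondrial ribosomal proteins 0.12 (Mrps12 0.44, Mrps9 0.45) and glycolysis 0.05, where Pfkfb1 rose and Hk2, hexokinase 2, had a log2 difference of -1.002 (adjusted p = 0.218). Without MR 2 weeks replicate 1 the medians were -0.00428 for oxidative phosphorylation, -0.11 for the citric acid cycle, 0.04 for mitochondrial ribosomal proteins and -0.04 for glycolysis, and of these 4 lists the mitochondrial ribosomal one stayed above 0. Set against Sham, the medians of the fatty acid list were -0.11 at 10 weeks and -0.29 at 2 weeks, and those of oxidative phosphorylation -0.17 and -0.27. Among antioxidant and xenobiotic genes (median 0.14, and -0.03 without that library), Ephx1 rose and the sulfotransferase Sult1a1 had 1.27 (adjusted p = 0.0512, and 0.0119 without MR 2 weeks replicate 1). The joint list of muscle wasting ubiquitin ligases, FOXO and autophagy genes had a median of 0.15. Of its 39 genes 8 were higher at an unadjusted p under 0.05 (background 5.54%) and none was called (Gabarapl1 0.47, Map1lc3b 0.45).

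The remaining lists had medians between -0.16 and 0.11. In the calcium list 28 of 37 genes lay below 0, Atp2b4 fell, and Trdn, a protein of the calcium release unit, had a log2 difference of -0.64 (adjusted p = 0.0768, and 0.032 without MR 2 weeks replicate 1). The stress and amino acid list and the glucocorticoid list each held 1 call, the riser Ddit4, which both contain; Ddit3 of the integrated stress response had a log2 difference of 0.64 (adjusted p = 0.141), and of 0.91 without MR 2 weeks replicate 1 (adjusted p = 0.00222). No gene was called in the lists of ion channels, adrenergic and cyclic nucleotide signalling, TGF-beta and BMP signalling, cardiac stress genes, sarcomere, atrial genes, fetal and skeletal muscle, smooth muscle, adipocytes, macrophages, mast cells and granulocytes, endothelial cells, Schwann and mesothelial markers, proteasome, cytosolic ribosome, heat shock or splicing. The genes of these lists with adjusted p values nearest the threshold included Kit, the stem cell factor receptor of mast cells (-1.03, adjusted p = 0.0512, and 0.0414 without MR 2 weeks replicate 1). The muscarinic receptor gene Chrm2 had -0.88, the TGF-beta receptor gene Tgfbr2 -1.06, the endothelin receptor gene Ednrb -0.94 and the potassium channel gene Kcnd2 -0.67 (adjusted p = 0.119, 0.182, 0.154 and 0.219). Without MR 2 weeks replicate 1, Tgfbr2 fell by 1.49 (adjusted p = 0.0174). The mast cell protease Cma1 had -1.01 and the mesothelial marker Msln -1.67 (adjusted p = 0.143 and 0.226), all as log2 differences.

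No marker of a cell type passed the adjusted threshold. Summed endothelial markers were 537 to 679 in MR 10 weeks, 636 to 724 in MR 2 weeks and 506 to 741 in Sham libraries, and macrophage markers were 67.7 to 108, 62.3 to 90.3 and 38.7 to 89.7 in the same order. Their median log2 differences were -0.11 each. Median log2 differences were larger in other marker sets, each with 4 or fewer genes tested: -0.82 in mast cell, -0.91 in mesothelium, 0.89 in neutrophil and 0.63 in adipocyte markers, besides the erythroid and atrial sets above. Their sums overlapped between the MR groups, with 6.69 to 16.5 and 8.70 to 27.2 for mast cell, 17.02 to 40.1 and 24.6 to 47.4 for mesothelium, 3.89 to 19.2 and 1.85 to 8.40 for neutrophil, and 604 to 828 and 387 to 742 for adipocyte markers in MR 10 weeks and MR 2 weeks libraries. The part of a change in cell types in the fall of the division genes was not tested. Gene span on rn6 moved with the difference: the median log2 difference was 0.07 in the fifth of genes with the shortest span and -0.07 in the fifth with the longest (0.07, 0.05, 0.00487, -0.02 and -0.07 over the bins), and the part of RNA quality in this was not tested. With the genes in these 5 bins of span from short to long, 6, 11, 16, 14 and 12 of the genes that fell lay in each.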

How the data were processed

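Bulk RNA of rat myocardium was sequenced on the Illumina platform after miRNeasy extraction, per the labels' protocols. Deposited tables hold normalised counts, a signal made by the authors in Partek on rn6, per the submitters' processing notes. The aligner, annotation and normalisation method were not given in the sources used here. Tables of 2 and 10 weeks were joined on gene symbol (10433 and 10404 genes, 10230 shared), and libraries were put on a common scale by median ratios to the geometric mean of each gene. The 5 Sham libraries stand in both tables, and the values of the 2-week table were used. Between 95.4% and 97.5% of values were whole reads within 0.1 of a read; edgeR on the recovered reads, an alternative, called 65 genes and DESeq2 333. The values were not raw counts, so a count test was not the main test.

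Log2(value + 1) of the 14 libraries was fitted by group with limma 3.58.1 (trend, R 4.3.3) for 10077 genes with a mean of at least 1, and p-values were adjusted by Benjamini and Hochberg over all of them, with a threshold of 0.05. edgeR 4.0.16 and DESeq2 1.42.0 were alternatives, and the fits were tested on simulated data. Replicates differed beyond counting noise (chi-square per gene 21.5 to 111 over 16 pairs), so none was merged. Counting error covers only part of the spread.

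Genes were named by rule: up to 12 rises and 12 falls among those that passed with groups apart and a mean no lower than the tested genes' median, a panel of 12 cardiac genes, up to 5 genes of smallest p from each of the 12 lists farthest from the all-gene median, and up to 2 from each other list; exceptions are said to be named after their values were seen. Members and lists were chosen with earlier results of these data known. Promoters were matched by symbol to RefSeq on GRCr8 (7595 of 10077 genes with a single entry). Alternatives covered libraries, scaling, pseudocount, filter, library weights, tool and each library left out.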

Additional observations from a re-analysis of the deposited data

Results flagged for a closer look

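Of 100 sets of values checked (48 genes in each MR group, and 2 principal components), 6 held a library far from the rest of its group by the gap over the range, and chance alone gives about 1 in 20. In MR 10 weeks, replicate 4 was the far library in 3 genes: Rrm2 at 2.57, Art5 at 4.22 and Atp2a2 at 2089.7 normalised counts. In MR 2 weeks, replicate 3 was far above its group in Selp at 5.71 and Myl7 at 2.66, and replicate 1 far below it in Tpm4 at 32.4.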

How the results depend on the processing

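The count of 70 called genes was 44 with the MR libraries alone, 137 with all 24 libraries, 333 with DESeq2 on recovered reads, 1127 with library weights (which gave MR 2 weeks replicate 1 a low weight) and 4 with a mean of at least 5, which left 7441 genes. Of the 70 genes, 70 were also called by DESeq2, 61 by edgeR (65 calls) and 45 with values as deposited. With the MR libraries alone 40 of the 70 were called, and at a mean of at least 5 there were 4. Without MR 2 weeks replicate 2 the shared count was 20, and without MR 2 weeks replicate 4 it was 18. Leaving out 1 library gave 20 to 352. The count of division genes that fell was 22 of 53 tested, with 2 of the 14 left to test at a mean of at least 5, 40 of 53 with library weights and 10 to 28 with 1 library left out. Values as deposited moved the median of all genes by 0.105 and gave 18 higher and 34 lower calls, against 11 and 59.

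Of 165 genes recomputed under each alternative, 4 changed sign, none of them called. Nppb was -0.17 with library weights and -0.0672 to 0.33 with 1 library left out. Acta1 was 0.000345 with values as deposited and -0.34 to 0.26 with 1 library left out. Atp2a2 was 0.0888 with values as deposited and -0.26 to 0.13 with 1 library left out. Des was -0.00287 with equal totals, -0.19 with library weights and -0.17 to 0.19 with 1 library left out. Markers that enter the text only in sums were not all among the 165. Actc1 of the cardiomyocyte sum was 0.02 in the main fit and -0.38 without MR 2 weeks replicate 1. The cause of these changes was not tested. Over these 165 genes and 20 alternatives, 294 values lost their call and 167 gained one in the same direction. No paired analysis was possible because the labels number the libraries through the series and give no number shared between groups. Low counts limit the division genes: Top2a rests on 96 reads at 10 weeks.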
